A study of Mus musculus with 9 samples.

Results

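The opening of promoters of interferon response genes was followed in HPC7, a line of mouse blood progenitors kept in medium with serum and stem cell factor. The assay was ATAC-seq, which reads where a transposase can insert adapters into accessible chromatin. The 9 genes were chosen by name, with earlier results of these data known: Ifit2, Usp18, Rsad2, Mx2, Stat2, Irf1, Irf9, Adar and Eif2ak2. Of these, 8 had a promoter window in the table analysed, 1 window each, and they make up 8 of its 10271 windows. No window was assigned to Irf1, and that gene was not analysed here. The compared groups were MIG-EV, the line with an empty retrovirus as control, and MIG-Snai1, the line with a retrovirus that expresses wildtype Snai1 (FLAG-tagged per the series' design text). Snai1 is a zinc finger repressor known from epithelial-mesenchymal transition. Each group had 3 libraries from 100000 cells each, of the same parental line and medium. The remaining group of 3 libraries, MIG-mut5Snai1, carried a mutant Snai1 and was not analysed here. Whether replicate libraries trace back to independent infections is not stated in the labels, and the spread behind the authors' p-values may be technical.

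Interferons are secreted proteins that cells release on sensing viral nucleic acid. The type I receptor, made of Ifnar1 and Ifnar2, signals through the kinases Jak1 and Tyk2 to STAT transcription factors such as Stat2, which joins Irf9 in a complex that binds the interferon-stimulated response element (ISRE). The type II receptor, made of Ifngr1 and Ifngr2, acts on gamma-activated sites (GAS). The induced genes encode proteins that block viral replication, and others, such as Usp18, that damp the receptor. Interferon also acts on blood stem cells and progenitors, which it can drive out of quiescence.

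Each value below is the authors' log2 concentration (normalized reads in a region, as DiffBind names it), given as 1 value per group over a window that begins 1000 bp upstream of a gene start. No value per library is in the table, so neither a standard deviation nor a test across libraries could be computed, and the depth of the libraries is unknown here. Change means MIG-Snai1 minus MIG-EV, and called means that the authors' FDR was at most 0.05. These same values were known when the genes were chosen, so they describe the genes and carry no test here. The implied standard error (SE) was worked back from the change and the authors' p-value. For changes smaller than 0.1 log2, as at Stat2, Irf9 and Adar, it was instead the median of windows of like accessibility. In a bulk assay, an altered opening in all cells and an altered share of cells with an open promoter cannot be told apart.

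As a check of the labelled cell type, 11 of 12 progenitor marker genes, Kit, Tal1, Lyl1 and Lmo2 among them, had a window in the table, with a log2 concentration in MIG-EV between 9.22 and 12.22. Of other cell types, 1 of 7 fibroblast, 0 of 5 T lymphocyte, 1 of 4 B lymphocyte and 2 of 4 macrophage markers had a window. In MIG-EV the fibroblast marker Pdgfrb stood at 10.14, the B lymphocyte marker at 6.59 and the macrophage markers at 7.19 and 10.15. Pdgfrb and the more open macrophage marker thus lay within the progenitor range. The share of all genes with a window was not computed. The median window had a log2 concentration of 10.78 in MIG-EV and 10.84 in MIG-Snai1, and the median change was 0.08.

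The promoters of Rsad2, Ifit2, Stat2 and Eif2ak2 are shown because they carry, in different arrangements, the letters through which interferon acts or those that Snai1 binds; they run from 250 bases before to 30 bases after the start, 5′ to 3′ along the gene, from RefSeq (GRCm38.p6, the mm10 coordinates). Capitals mark the core of the ISRE (GAAA, any 2 bases, GAAA, which reads TTTC, any 2 bases, TTTC on the other strand), TTCNNNGAA (GAS) and CACCTG or CAGGTG (the Snai1 E-box), searched on both strands, and none of the marked stretches overlap.
Rsad2, chr12:26456423-26456702, minus strand: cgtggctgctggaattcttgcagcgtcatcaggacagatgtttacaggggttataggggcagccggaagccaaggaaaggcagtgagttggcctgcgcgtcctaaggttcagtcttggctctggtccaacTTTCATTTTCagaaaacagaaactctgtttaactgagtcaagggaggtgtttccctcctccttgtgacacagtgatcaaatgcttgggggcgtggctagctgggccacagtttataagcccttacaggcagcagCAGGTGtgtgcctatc
Ifit2, chr19:34550444-34550723, plus strand: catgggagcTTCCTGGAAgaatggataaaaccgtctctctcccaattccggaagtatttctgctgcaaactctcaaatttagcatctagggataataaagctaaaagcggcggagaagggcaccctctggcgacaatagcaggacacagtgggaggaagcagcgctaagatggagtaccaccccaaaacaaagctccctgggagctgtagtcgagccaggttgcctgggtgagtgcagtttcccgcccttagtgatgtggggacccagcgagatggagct
Stat2, chr10:128270248-128270527, plus strand: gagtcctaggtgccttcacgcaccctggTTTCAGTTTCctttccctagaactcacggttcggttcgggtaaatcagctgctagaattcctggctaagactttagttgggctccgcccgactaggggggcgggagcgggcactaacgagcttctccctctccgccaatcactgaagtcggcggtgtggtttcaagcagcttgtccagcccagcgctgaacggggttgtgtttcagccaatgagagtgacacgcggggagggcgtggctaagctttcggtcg
Eif2ak2, chr17:78882543-78882822, minus strand: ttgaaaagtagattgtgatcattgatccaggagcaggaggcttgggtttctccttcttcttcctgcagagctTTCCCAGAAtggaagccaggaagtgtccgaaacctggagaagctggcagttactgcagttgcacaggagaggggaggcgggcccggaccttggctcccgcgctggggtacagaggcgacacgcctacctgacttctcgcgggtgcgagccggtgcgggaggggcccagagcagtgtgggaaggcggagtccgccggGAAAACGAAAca

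Among the 7 member genes with a RefSeq promoter of 300 bases, the ISRE letters were found at Rsad2 (120 bases before the start), Stat2 (222 before) and Eif2ak2 (from base 19 after the start). They occur in 3.44% of all 32851 RefSeq promoters of that length. GAS letters, held by 8.30% of all promoters, were found at the start used by the window of Ifit2 and at that of Eif2ak2, at a start of Irf1 and at a downstream start of Adar. The E-box letters, held by 20.2% of all promoters, were found at Rsad2 (base 15 after the start) and Irf9 (131 bases before it). Usp18 and Mx2 had no entry in the promoter table. A match of letters is a description and not a measured binding site.

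The effector genes were split, with Rsad2 and Mx2 less open and Ifit2 more open in MIG-Snai1, and the receptor brake Usp18 was also more open. The subunits of the interferon-activated complex, Stat2 and Irf9, had changes of -0.04 and 0.06 that were not called. In the authors' deposited table, 3 of the 8 genes were called higher (Ifit2, Usp18 and Eif2ak2) and 2 lower (Rsad2 and Mx2), and 3 (Stat2, Irf9 and Adar) were not called. Over all windows 30.0% were called, 19.6% higher and 10.3% lower. The decreases were the larger changes, and the members' median of 0.04 lay beside 0.08 for all windows. With the all-window median subtracted and the changes tested again with the implied SE (Benjamini-Hochberg over all windows, 21.0% called, 7.21% higher and 13.8% lower), 2 were higher and 2 lower. With the median of the 10 nearest windows on each side subtracted, called the local median from here on, 1 was higher and 2 lower, beside 13.8% of all windows called, 5.41% higher and 8.36% lower. These re-tests use the values with which the genes were chosen and are given only as other settings of them. The windows behind the local median spanned from 0.65 Mb at Irf9 to 10.04 Mb at Rsad2.

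**Figure D1:**
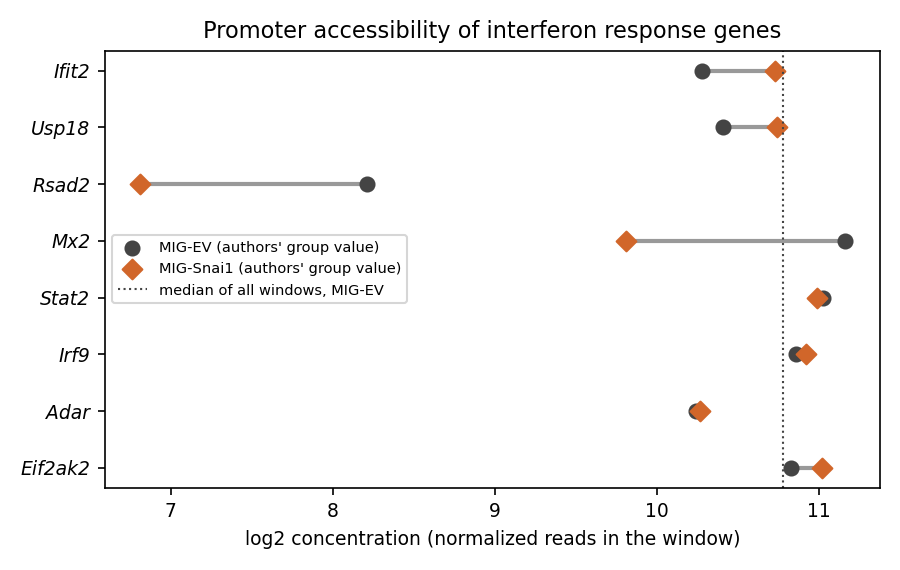
Log2 concentration of the promoter window of each of the 8 genes in MIG-EV (circles) and MIG-Snai1 (diamonds), 1 authors' value per group, with the median of all windows in MIG-EV (10.78) dotted. Rsad2 and Mx2 moved down by more than 1 log2 unit, whereas the other 6 genes moved by 0.45 or less.

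Rsad2 encodes viperin, an enzyme that makes a chain-terminating nucleotide against viral polymerases. Its window (chr12:26456352-26457452, at the RefSeq 5′ end) was the least open of the 8, with a log2 concentration of 8.21 in MIG-EV and 6.81 in MIG-Snai1 in the authors' deposited table. It fell by 1.40 (2.64-fold, implied SE 0.17, 95% interval -1.73 to -1.07, FDR 9.79e-15). Its change stood at percentile 0.823 of all windows, and its level in MIG-EV at percentile 7.23. Windows this weakly open scattered more: in the lowest decile of accessibility the central 90% of changes ran from -1.50 to 1.01.

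The decrease at Rsad2 was shared by its neighbours. Cmpk2, a mitochondrial nucleotide kinase gene that interferon induces with Rsad2 and whose start lies 12.8 kb away, went from 9.66 to 8.93 in the authors' deposited table and fell by 0.73 (implied SE 0.11, FDR 3.46e-10). On the other side, 41.2 kb away, Rnf144a, an E3 ubiquitin ligase gene, went from 9.58 to 8.44 and fell by 1.14 (implied SE 0.12, FDR 9.84e-20). The 3 windows span 54.0 kb and stand alone: the next windows lie 1.32 Mb before (Id2, change 0.05) and 2.17 Mb after (Rps7, change 0.09) in the table. The local median at Rsad2 was 0.085, from windows that span 10.04 Mb. Against that wide stretch the change was -1.49. The promoter of Cmpk2 held the E-box letters (CACCTG, 177 bases before the start) and no ISRE letters, whereas that of Rsad2 held both. The E-box letters occur in 20.2% of all promoters, and the promoter of Rnf144a was not examined singly.

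Mx2 belongs to the family of interferon-induced GTPases that trap viral ribonucleoproteins, and it is annotated in this reference, made from C57BL/6J, as a transcribed pseudogene. Its window (chr16:97535083-97537083) was the most open of the 8 in MIG-EV, at 11.16, and stood at 9.81 in MIG-Snai1 in the authors' deposited table. It fell by 1.35 (2.55-fold, implied SE 0.08, 95% interval -1.51 to -1.19, FDR 2.36e-57). All 12 other windows within 3 Mb were also called lower, with changes from -0.96 to -0.53, and the local median was -0.71. The nearest were Igsf5 (-0.96, at a weakly open window) on the one side and the zinc finger gene Prdm15 (-0.64) on the other. Set against the local median, the change at Mx2 was -0.64. The change at Mx2 was thus below that of each window within 3 Mb, on a stretch that was lower as a whole.

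**Figure D2:**
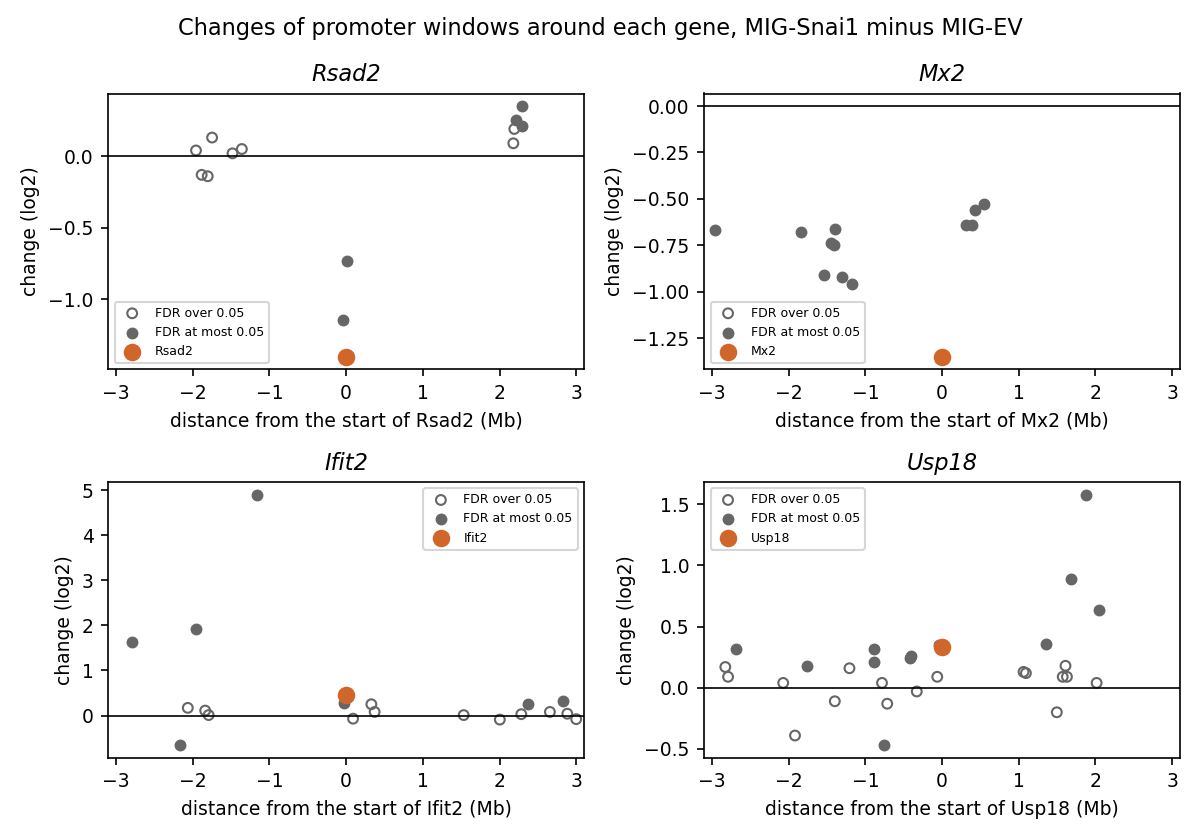
Change of every promoter window within 3 Mb of Rsad2, Mx2, Ifit2 and Usp18 against its distance from the start of that gene (filled points: authors' FDR at most 0.05). The vertical scales differ between panels. Rsad2 and its 2 adjacent windows are the low points of their panel, whereas every window around Mx2 lies below 0.

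Ifit2 encodes a tetratricopeptide protein that binds viral RNA and blocks its translation. Its window (chr19:34549694-34551694, 144 bp inside the RefSeq 5′ end) had a log2 concentration of 10.28 in MIG-EV and 10.73 in MIG-Snai1 in the authors' deposited table. It rose by 0.45 (1.37-fold, implied SE 0.07, 95% interval 0.31 to 0.59, FDR 1.07e-08), which put its change at percentile 97.3 of all windows. Against the local median of 0.095 the change was 0.355. The other family member with a window, Ifit1, which lies 90.2 kb downstream, was barely open, at 6.86 in MIG-EV and 6.79 in MIG-Snai1. The authors' deposited table did not call its change of -0.07 (implied SE 0.22, FDR 0.84). On the other side of Ifit2, the lysosomal lipase gene Lipa rose by 0.28 (FDR 0.0305). The difference between Ifit2 and Ifit1 was not tested.

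Usp18 removes ISG15 from proteins and blocks the type I receptor at Ifnar2, which makes it the main brake on the pathway. Its window (chr6:121244906-121246906, at the RefSeq 5′ end) went from 10.41 in MIG-EV to 10.74 in MIG-Snai1 in the authors' deposited table. It rose by 0.33 (1.26-fold, implied SE 0.08, 95% interval 0.17 to 0.49, FDR 3.53e-04). The tubulin gene Tuba8, 35.1 kb away, rose by a like amount (0.35, FDR 0.00322), and M6pr, 1.06 Mb away on the other side, had a change of 0.13 (FDR 0.261). Against the local median of 0.125 the change at Usp18 was 0.205 and was no longer called (FDR 0.0653 in the re-test).

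The components of the interferon-activated complex showed no called change. Stat2, its transactivating subunit, had a log2 concentration of 11.03 in MIG-EV and 10.99 in MIG-Snai1 in the authors' deposited table (chr10:128269576-128271576; change -0.04, implied SE 0.08, 95% interval -0.19 to 0.11, FDR 0.657). Irf9, its DNA-binding subunit, had 10.86 and 10.92 (chr14:55602985-55604985; change 0.06, implied SE 0.08, 95% interval -0.09 to 0.21, FDR 0.64). Neither interval reaches the change of 0.45 seen at Ifit2, but both rest on an SE taken from windows of like accessibility. Irf9 lies in a gene-dense stretch where the local median was 0.195, and its neighbours Rnf31 (0.20, FDR 0.0402), of the linear ubiquitin ligase, and Rec8 (0.42, FDR 0.022), a meiotic cohesin gene, both rose in the authors' deposited table. Stat2 lay between the replication fork gene Timeless (0.20, FDR 0.077) and the deadenylase gene Pan2 (0.04, FDR 0.741), neither of them called.

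The genes that act on double-stranded RNA changed little. Eif2ak2 encodes PKR, the kinase that halts translation on binding double-stranded RNA. Its window (chr17:78882472-78883572) went from 10.83 in MIG-EV to 11.02 in MIG-Snai1 in the authors' deposited table, and it rose by 0.19 (1.14-fold, implied SE 0.08, 95% interval 0.04 to 0.34). The FDR of 0.0484 was just inside the threshold, and the call was lost with the all-window median subtracted (change 0.11, FDR 0.346 in the re-test) and with the local median of 0.09 subtracted (change 0.10, FDR 0.461). Its neighbours Gpatch11 (0.13, FDR 0.286) and Cebpzos (0.09, FDR 0.486) were not called. Adar edits adenosine to inosine in double-stranded RNA and so keeps a cell's own RNA from being sensed. Its window (chr3:89714022-89716022) stood at 10.24 in MIG-EV and 10.27 in MIG-Snai1 in the authors' deposited table (change 0.03, FDR 0.837). The implied SE, taken from windows of like accessibility, was 0.09, with a 95% interval of -0.14 to 0.20. That window sits on the upstream starts of the gene. A RefSeq start further down, at position 89730718, had no window of its own here. The neighbours of Adar were the mevalonate pathway gene Pmvk, which rose by 0.29 (FDR 0.014), and Ube2q1, with a change of 0.04 (FDR 0.673).

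**Figure D3:**
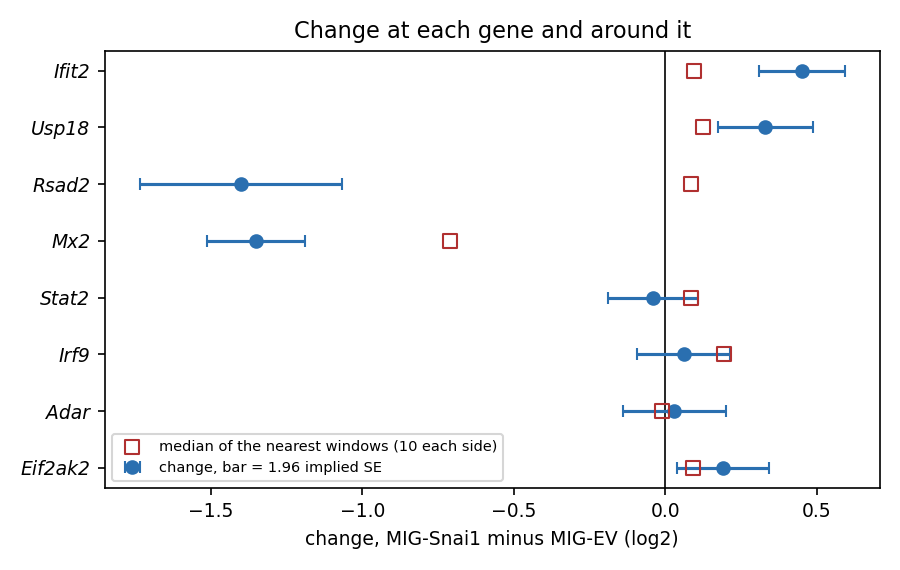
Change at each of the 8 genes (circles, MIG-Snai1 minus MIG-EV on the log2 scale, bars the 95% interval from the implied SE) and the median change of the 10 nearest windows on each side (open squares; 14 windows in all for Mx2, near the chromosome end). Only at Mx2 is the surrounding median far from 0, at -0.71.

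The wider pathway was described from 11 lists of 152 genes sorted by role, the members included, written from general knowledge with earlier results known. A window was found for 102 of them. By the FDR of the authors' deposited table, 21 were called higher, 17 lower and 64 not called (37.3% called, against 30.0% of all windows), and the median change was 0.06 against 0.08 for all windows. The increases were small, with a median of 0.27 and none of 1 log2 unit, whereas 5 of the 17 decreases reached 1 log2 unit and their median was -0.57. The balance moved with the centre: 11 were higher and 19 lower with the all-window median subtracted, and 8 higher and 10 lower with the local median subtracted. Of all windows, 7.21% were higher and 13.8% lower with the all-window median subtracted, and 5.41% and 8.36% with the local median.

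Among the signals and their receptors, 0 of 11 interferon genes had a window. Of 6 receptor chains 5 had one, and 4 fell. The 4 lie within 174.3 kb on chromosome 16: Ifnar2 went from 11.13 to 10.54 in the authors' deposited table (change -0.59, FDR 2.31e-13), Il10rb from 10.39 to 9.95 (-0.44, FDR 3.43e-07), Ifnar1 from 12.18 to 11.82 (-0.36, FDR 1.09e-05) and Ifngr2 from 11.30 to 10.79 (-0.51, FDR 2.42e-08). Ifngr1, on chromosome 10, had a change of 0.10 (FDR 0.318). The local medians on chromosome 16 were between -0.45 and -0.43, and with them subtracted 0 of the 5 receptor genes were called (their re-test FDR ran from 0.152 to 0.981). Chromosome 16 held 9 of the 102 pathway genes, of which 6 were lower and 1 higher (median -0.36, against -0.35 for all 335 windows of that chromosome, 82.4% of them called). On the other chromosomes 20 of 93 were higher and 11 lower, beside 19.6% and 10.3% of the windows of all chromosomes.

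Of the 8 receptor kinases and STATs, 0 were called in either direction in the authors' deposited table, the smallest p-values being those of Tyk2 (0.17, FDR 0.0768) and Jak2 (0.12, FDR 0.223). Among the IRF genes, Irf5 (0.33, FDR 2.90e-05, at a window 3152 bp inside the gene) and Irf3 (0.20, FDR 0.0178) rose, both of which switch on interferon genes after sensing. Of 12 negative regulators, Usp18 and Socs1 (0.27, FDR 0.0013), an inhibitor of the Jak kinases, rose and 10 were not called. Socs1 lies on a part of chromosome 16 with a local median of 0.32, and with it subtracted was not called (re-test FDR 0.736). Irf3 was not called under either centre (0.226 in each).

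Nucleic acid sensing was covered by 15 genes. The authors' deposited table called 3 of them higher and 2 lower, beside 19.6% and 10.3% of all windows. The kinase gene Ikbke, which activates Irf3, had the largest change of this list and went from 9.66 to 8.55 (change -1.11, FDR 5.79e-12), and against its local median it was -0.92. Traf3, an adaptor of the same branch, fell by 0.57 (FDR 5.11e-11) on a stretch of chromosome 12 with a local median of -0.41. The DNA sensor gene Cgas rose by 0.39 (FDR 0.00248) and the Toll-like receptor adaptor gene Myd88 by 0.23 (FDR 0.0154). With the local median subtracted, Ikbke and Myd88 were called (re-test FDR 3.96e-08 and 0.0334) and Traf3 and Cgas were not (0.171 and 0.208); with the all-window median subtracted, Myd88 was not (0.170). Among the genes that act on double-stranded RNA, Eif2ak2 rose, while Oas3, Oas1c and Oas1b, of the family of oligoadenylate synthetases, were not called. Among 6 genes of ISG15 conjugation, Usp18 rose, Ube2l6, the conjugating enzyme, fell (-0.29, FDR 0.0122), and Isg15 itself was weakly open and not called (8.09 and 8.01, FDR 0.715).

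Antiviral effectors moved in both directions. The authors' deposited table called 6 of the 28 with a window higher and 7 lower, with a median of 0.04. Over all windows 19.6% were called higher and 10.3% lower. With the local median subtracted, 3 were higher and 6 lower, beside 5.41% and 8.36% of all windows. The 6 higher in the deposited table were Ifit2, Ifi27, Plscr1, Pml, Nmi and Ifi35, with changes from 0.24 to 0.64. Besides Rsad2, Mx2 and Cmpk2, Slfn5, of the Schlafen family, fell from 9.82 to 8.59 (change -1.23, FDR 5.52e-26) and Trim30a, a tripartite motif gene, from 9.69 to 8.96 (change -0.73, FDR 1.28e-10). Reads of Schlafen, Trim30 and guanylate-binding protein genes are uncertain, since these genes have close copies and how the authors counted reads with several matches is unknown here. Of the interferon-induced GTPases, 5 of 15 had a window: Gbp7 fell from 7.11 to 5.43 (change -1.68, FDR 3.92e-11), Irgm1 rose from 10.59 to 10.95 (change 0.36, FDR 2.60e-04), and 3 were not called. Irgm1 lost its call with the local median subtracted (re-test FDR 0.0726). Antigen processing genes formed the list with the highest median, 0.20, with 6 of 10 higher and 0 lower, beside 19.6% of all windows called higher. They included B2m (0.26, FDR 4.97e-04), the immunoproteasome genes Psmb10 (0.45, FDR 0.0028) and Psmb9 (0.24, FDR 0.00372), and the peptide transporter gene Tap1 (0.24, FDR 0.00561) in the authors' deposited table. Psmb9 and Tap1 start from opposite strands within windows that overlap, so they share reads and are not separate measurements. With the local median subtracted, 2 of the 10 were called higher, Psmb9 and Tap1 (re-test FDR 0.0277 and 0.0266), and with the all-window median subtracted 2 others, B2m and Psmb10 (0.0274 and 0.0208), so that none of the 10 was called under both centres.

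**Figure D4:**
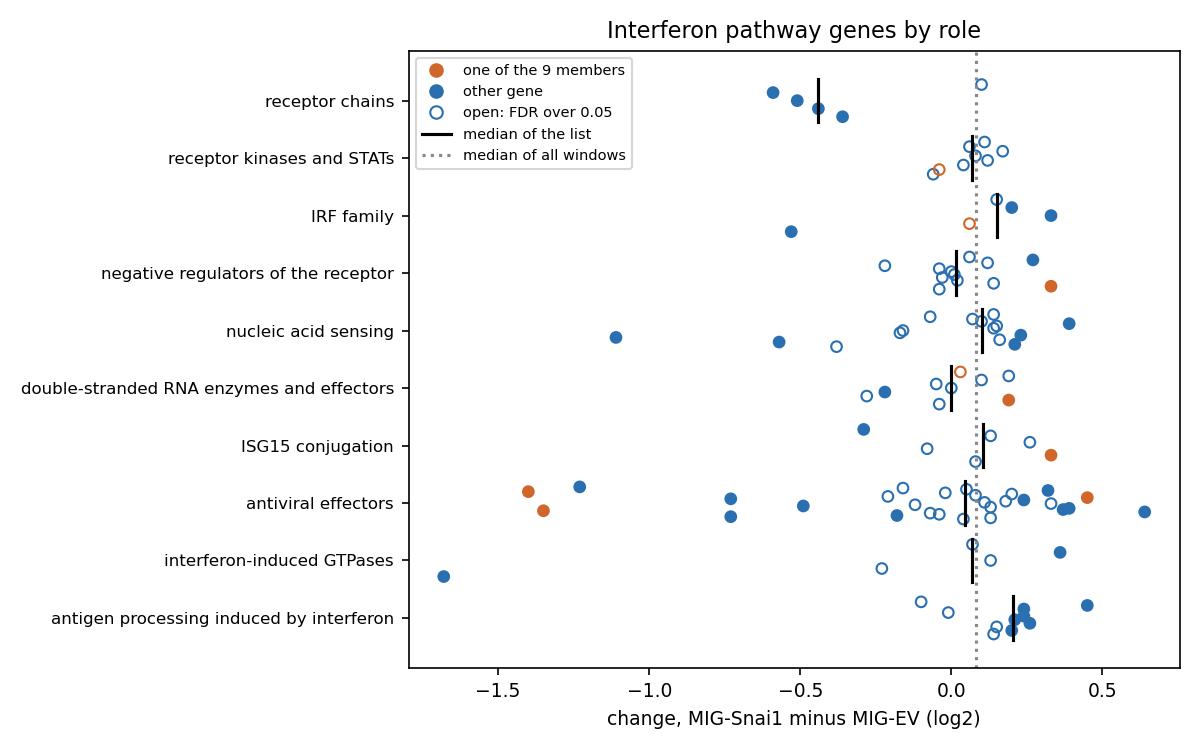
Change of each pathway gene with a window, by role (the list of interferon genes had none), with the members in orange and filled points called at the authors' FDR of at most 0.05. Bars mark list medians and the dotted line the median of all windows (0.08); receptor chains have the lowest median, -0.44, and antigen processing genes the highest, 0.20.

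The ISRE letters seen at Rsad2, Stat2 and Eif2ak2 were common in the pathway, in 45 of its 148 RefSeq promoters (30.4%, against 3.44% of all). Of the pathway promoters with these letters, 19 start exactly where a window does, and the authors' deposited table called 3 of those windows higher and 5 lower, with a median change of -0.05. Of 50 pathway windows matched in the same way without the letters, 13 were higher and 7 lower, with a median of 0.12. The 5 lower ones with the letters (Gbp7, Rsad2, Slfn5, Trim30a and Ifitm3) were less open in MIG-EV, from 7.11 to 9.82, than the 3 higher ones (Eif2ak2, B2m and Socs1), at 10.83 to 11.30. Gbp7, Slfn5 and Trim30a are of the families with close copies, so their reads are uncertain. Over all 188 windows matched in this way with the letters, 31.9% were called and the median change was 0.11, against 29.9% and 0.08 for the 6453 without. Among the 8 called pathway windows with the ISRE letters, the level in MIG-EV and the direction of change moved together, but these were picked by their call. The 11 such windows that were not called ran from 4.55 to 11.11 in MIG-EV, with changes from -0.28 to 0.15. Weakly open windows without a called decrease were thus among them. The part of the level in the result was not tested. The E-box letters stood in 15 of the pathway windows so matched, of which 4 were higher and 3 lower (median 0.13), against 12 higher and 9 lower of 54 without them (median 0.09). Over all windows so matched, 30.2% with the E-box letters were called, against 29.9% without.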

How the data were processed

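ATAC-seq libraries of HPC7 cells (9 libraries in 3 groups) were processed by the authors with fastp, Bowtie2, Picard and DiffBind against mm10, per the submitters' processing notes; versions, read shifting, scaling and the counting rule were not given in the sources at hand. The deposited table held, per the file headers, log2 concentrations of both groups and their log2 fold, with the authors' p-value and FDR. Its columns of values per sample numbered 0. Of 10274 rows, 3 repeats were dropped. Windows of 2001 bp (plus strand) and 1101 bp (minus strand) were assigned to the RefSeq gene (GRCm38.p6) with a 5′ end within 1000 bp on that strand, otherwise to the 1 gene spanning them: 8957, 1269 and 45 with no gene. The shorter windows see less sequence after the start. Changes are differences of the group values, within 0.01 of the deposited fold. For counts, a gene took the window nearest its 5′ end.

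The implied SE is the size of the change over the normal deviate that matches the deposited p-value; below 0.1 log2 the median of the accessibility bin (20 bins) was used. Re-tests assume a centre known without error. They were run on simulated data whose p-values came from the same normal model, with 1 chromosome shifted evenly. That run could not check the implied SE or an uneven shift. Python 3.11.15, pandas 2.3.3 and scipy 1.17.1 were used. Members and lists were chosen with earlier results of these data known. Named genes were all members, their nearest windows, the receptor chains, and up to 4 called genes of smallest FDR per list (otherwise the 2 of smallest p). Isg15, the Oas genes, Ifitm3, Ifi27, Plscr1, Pml, Nmi, Ifi35, Aim2, Pias1, Id2 and Rps7 were named after their values were seen. Some genes that the rule names are not reported here.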

Additional observations from a re-analysis of the deposited data

How the results depend on the processing

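Of the 24 re-tests of single members (8 genes, 3 centres), 15 kept direction and side of the threshold and 5 lost the call: Eif2ak2 under all 3 and Usp18 under the local medians of 10 and of 5 windows on each side. In the other 4, values not called under any centre changed sign: Irf9 (0.06) became -0.02 with the all-window median subtracted and -0.135 and -0.145 with the local medians of 10 and of 5 windows, and Adar (0.03) became -0.05 with the all-window median subtracted. Of the members, 1 in place of 3 was called higher with the local median of 10 windows subtracted, and 1 in place of 2 lower when only windows with a log2 concentration of at least 9 were kept, since Rsad2 (7.68 over both groups) was then left out. Of the pathway genes, 21 were called higher and 17 lower; at an FDR of 0.01, 13 were higher, with the all-window median subtracted 11, and with the local median subtracted 8 higher and 10 lower. The cause of these shifts was not tested. The other alternatives (FDR of 0.10, other choices of window) left each count within 1.5 times. No paired analysis was possible because the table gives 1 value per group, and leaving out a library could not be run for the same reason. Precision was lowest in the lowest decile of accessibility, with a median implied SE of 0.176 there against 0.075 to 0.107 in the others.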

Other observations

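A few pathway genes differed from the chromosome around them in ways not described above. Ifi27, an interferon-induced gene of the mitochondrial membrane, rose from 8.57 in MIG-EV to 9.21 in MIG-Snai1 in the authors' deposited table (change 0.64, FDR 3.50e-07), on a stretch of chromosome 12 with a local median of -0.42, so that it stood 1.06 above its surroundings. Aim2, the inflammasome sensor of DNA, had a change of -0.07 (FDR 0.467) at a window 71057 bp inside the gene, where the local median was -0.34. Pias1, an inhibitor of STAT factors, had a change of -0.22 (FDR 0.065) beside a local median of 0.12. These 2 genes were the only ones of the 102 that were not called in the authors' deposited table and were called in the re-test with the local median subtracted (FDR 0.00526 and 0.00593).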
